A study of Mus musculus with 14 samples.

Results

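The miRNAs described here are those transcribed from the Hox gene clusters, miR-10a, miR-10b and miR-196b, as measured by quantitative PCR in mouse plasma. Wells were chosen by name alone, taking every named well whose miRNA, without its species prefix, arm suffix and asterisk, is miR-10a, miR-10b, miR-196a or miR-196b. The rule found 5 of the 392 named wells, out of 768 wells per mouse: mmu-miR-10a, mmu-miR-10b and mmu-miR-196b on panel I, and rno-miR-10b and mmu-miR-196b* on panel II. The prefixes mmu- and rno- stand for assays designed on the mouse and the rat sequence, and an asterisk marks the passenger arm of a hairpin. miR-196a was not analysed here.

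Plasma came from 6 wild-type control mice and 8 mice with osteosarcoma (OS), 1 sample per mouse. The mice with OS are a genetically engineered mouse model (GEMM) in which a fragment of the Col-α1(I) promoter drives Cre in osteoblasts and deletes 1 or both floxed Trp53 alleles. Which of these mice carried 1 and which 2 floxed alleles, and the age of each mouse, are not given in the sources used here. Controls were wild-type littermates, which by the methods have intact p53 and carry Cre. Blood was drawn by cardiac puncture into EDTA once a tumor had formed, and the tumor cells themselves were not measured. The red blood cell miRNA miR-451, the liver miRNA miR-122 and the myeloid miRNA miR-223, all usual in plasma, were measured in all 14 mice.

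Hox genes encode transcription factors that give cells their position along the body axis, and a few miRNA genes lie among them and are switched on in the same stretches of the body. A miRNA finds its target mRNAs mainly through its seed, bases 2 to 8. miR-196 is known for cutting the Hoxb8 mRNA, and miR-10b for repressing HOXD10 and for its role in invasion of breast cancer cells. Mature miRNAs leave cells in vesicles, in lipoprotein particles or bound to protein, and can be read in plasma.

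The mature sequences show how close the members are to each other, and all are from RefSeq on GRCm38.p6, with the seed in capitals. miR-10a lies at chr11:96317186-96317208 (+ strand), within the bounds of Hoxb3 and between Hoxb5 and Hoxb4. miR-10b lies at chr2:74726074-74726096 (+), within the bounds of Hoxd3 and Hoxd4. The arms of miR-196b lie at chr6:52230129-52230150 and chr6:52230094-52230115 (-), between Hoxa9 and Hoxa10 and in no protein-coding gene. miR-196a is shown for comparison only.
mmu-miR-10a-5p: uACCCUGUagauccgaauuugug
mmu-miR-10b-5p: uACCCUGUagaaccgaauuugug
mmu-miR-196b-5p: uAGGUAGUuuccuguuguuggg
mmu-miR-196b-3p: uCGACAGCacgacacugccuuc
mmu-miR-196a-5p: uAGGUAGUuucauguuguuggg
miR-10a and miR-10b differ at 1 of 23 bases, U12A counted from the 5′ end of miR-10a, outside the seed. They are the only 2 of 1679 mature mouse names in the table with the seed ACCCUGU at bases 2 to 8, so by seed they form a family of their own. miR-196b and miR-196a differ at 1 of 22 bases, C12A, and are likewise the only 2 with AGGUAGU there. That run of 7 bases also lies in 7 let-7 names of the table, starting at another base, and in 0.774% of all names at any position. mmu-miR-196b was taken as the 5p arm and mmu-miR-196b* as the 3p arm, whose seed no other name in the table has. The sequence behind the rat assay of miR-10b is not shown.

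A quantification cycle (Cq) is the PCR cycle in which a well first gives a clear signal, so a lower Cq stands for more miRNA and 1 cycle for a doubling. A Cq above 37 was counted as not detected, as in the methods. Normalized log2 levels are the global mean Cq of a mouse minus the Cq of the assay, so that a higher value stands for more miRNA. Over the mice the global mean Cq was between 30.6 and 32.8 in controls and between 31.7 and 32.9 in OS. The haemolysis marker, by how many cycles miR-23a came after miR-451, which red blood cells release, was between 4.11 and 7.21 in controls and between 1.05 and 6.85 in OS. Labels name the mice as separate samples, and p-values measure the spread between them.

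Neither miR-10a nor miR-10b was lost from plasma in any mouse, whereas the rat assay of miR-10b and miR-196b dropped out in some mice with OS only. miR-10a and miR-10b were detected in 6 of 6 controls and 8 of 8 mice with OS, as were 71.0% of all 389 named assays in every mouse. rno-miR-10b was detected in 6 of 6 controls and 4 of 8 mice with OS (Fisher's exact test, two-sided, p = 0.0849), and mmu-miR-196b in 6 of 6 and 5 of 8 (Fisher's exact p = 0.209). Both differences are short of the threshold. These 2 wells are among 7 of 389 assays, or 1.80%, that were read in every control and missing in 3 or more mice with OS, a cutoff chosen after the values were seen. mmu-miR-196b* was detected in 5 of 6 controls and 7 of 8 mice with OS (Fisher's exact p = 1). By the same test 0.257% of all assays differed in detection at an unadjusted p under 0.05.

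All 5 wells belonged to the dimmer part of the panels. By mean Cq in controls the mouse assay of miR-10b ranked at 222 of 388 assays, counted from the most abundant, miR-10a at 248, miR-196b at 283, the rat assay of miR-10b at 326 and miR-196b* at 353. In OS the order of the first pair turned, with miR-10a at 214 and the mouse assay of miR-10b at 273. Assays can differ in efficiency, so ranks compare Cq values and not amounts of miRNA. In all, 9 of the 70 values of the 5 wells were missing (12.9%, against 5.84% over all assays tested).

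In limma across 388 assays, 0 of the 5 wells passed an adjusted p of 0.05, whereas 12.6% of all assays did, 6.19% higher and 6.44% lower in OS. At an unadjusted p under 0.05 the count was 1 of 5, miR-10a, against 30.7% of all assays. Point estimates ran both ways. miR-10a and miR-196b* had values above 0, and miR-10b and miR-196b had values below 0.

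miR-10a, from the Hoxb cluster, had a normalized log2 level of -2.43 at the lowest, -2.06 at the median and -1.17 at the highest in the 6 controls. In the 8 mice with OS the same values were -2.25, -1.28 and -0.10. Among mice with OS 4 exceeded all controls, and the other 4 lay within the control range. The means were -1.94 ± 0.47 (SD, n = 6) and -1.18 ± 0.68 (SD, n = 8), a log2 difference of 0.77 (standard error 0.36, 95% confidence interval 0.01 to 1.53) or 1.70-fold. This did not pass after adjustment over all assays (limma adjusted p = 0.157). The exact permutation test of this value alone gave p = 0.0370 (two-sided, unadjusted, smallest possible p = 0.000333). As Cq, before scaling, the means were 33.6 ± 0.977 (SD, n = 6) and 33.3 ± 1.01 (SD, n = 8), and the log2 difference was 0.33.

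miR-10b, from the Hoxd cluster, had a normalized log2 level in its mouse assay of -2.66 at the lowest, -1.33 at the median and -0.69 at the highest in controls. In mice with OS it was -4.36, -2.49 and 0.61, and its lowest and highest values of all 14 mice were both in OS. Of the 8 mice with OS 3 lay below every control and 1, OS replicate 17, above every control. Of the 6 controls 5 lay above each of the other 7 mice with OS, the exception being control replicate 13 at -2.66. The means were -1.41 ± 0.71 (SD, n = 6) and -2.59 ± 1.52 (SD, n = 8), a log2 difference of -1.18 (standard error 0.60, 95% confidence interval -2.45 to 0.09), or 2.27-fold lower. This did not pass (limma adjusted p = 0.199; exact permutation p = 0.106). Spread among the mice with OS was wide for the screen, with 24 of 276 assays measured in every mouse having a larger SD in OS, whereas miR-10a had 188 above it. Without OS replicate 17 the SD of miR-10b in OS was 0.87. The median SD of the 276 assays over all 8 mice with OS was 0.84.
The call on miR-10b turned on OS replicate 17. Without this mouse the log2 difference was -1.63 (standard error 0.44, limma adjusted p = 0.0246), 3.10-fold lower, with 17.5% of all assays called in that fit, 7.99% higher and 9.54% lower in OS. Leaving out any other mouse gave differences from -1.44 to -0.92 with no call. Since this mouse stands out by the value itself, the call without it is given as a measure of its weight and not as a result.

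**Figure D1:**
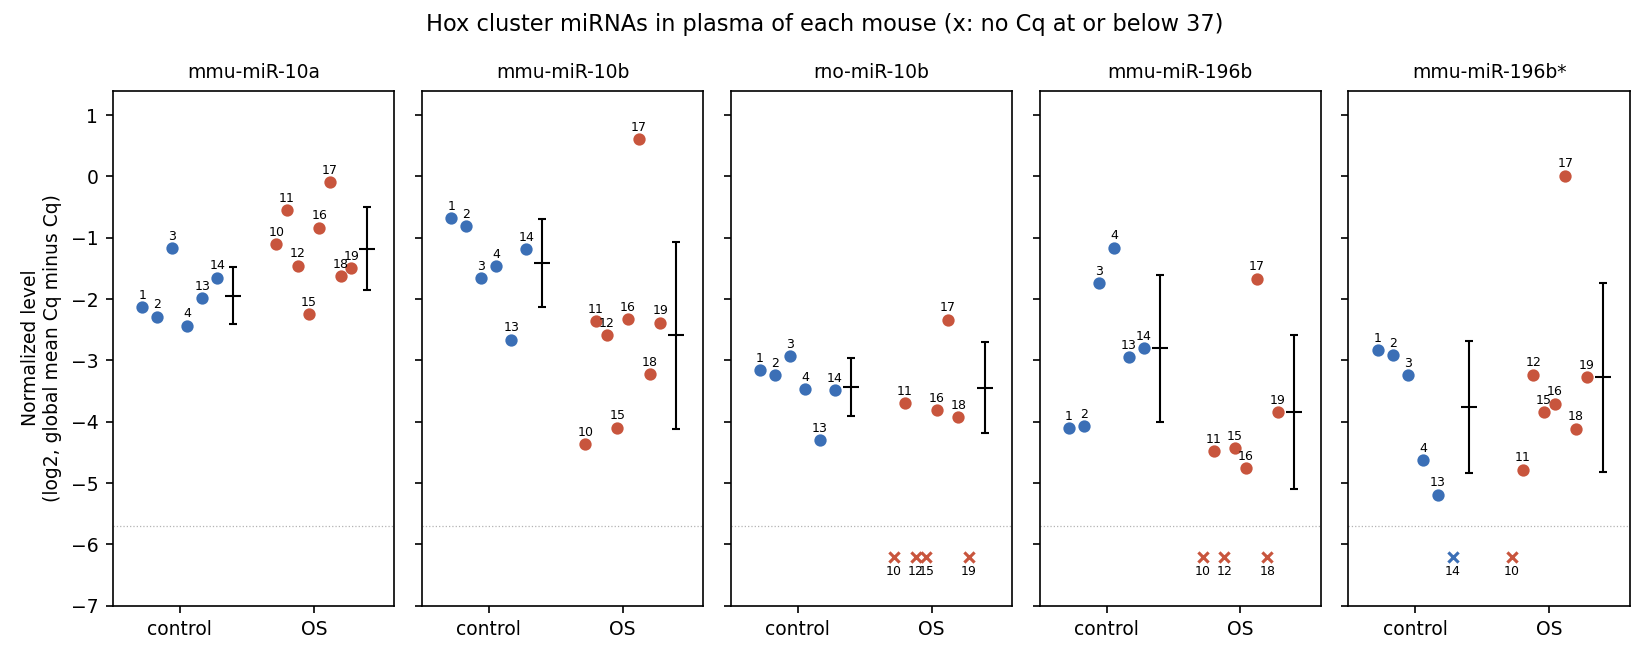
Normalized log2 level (global mean Cq minus Cq, vertical axis) of the 5 wells in each control and OS mouse, labelled with replicate numbers. Crosses at the bottom are mice with no Cq at or below 37, and bars are mean and SD of the detected values. OS replicate 17 is the highest mouse with OS in each panel, at 0.61 for mmu-miR-10b against -2.33 for the next.

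By the mouse assay of miR-10b, the order of miR-10a and miR-10b within a mouse was opposite in most controls and most mice with OS. By the rat assay the order was the same in both groups, while the difference was again higher on average in OS. The order compares Cq values of different assays and not amounts of miRNA. The difference between the 2 wells, both on panel I, does not depend on how a mouse is scaled. Because the opposite directions of the pair were known when it was chosen, it is described with no test. In controls miR-10a minus the mouse assay of miR-10b was -1.47 at the lowest, -0.72 at the median and 0.67 at the highest (log2). In OS it was -0.71, 1.54 and 3.26. miR-10a stood above miR-10b in 2 of 6 controls and in 7 of 8 mice with OS, and those 7 lay above every control. OS replicate 17, at -0.71, lay within the control range. The means were -0.53 ± 0.94 (SD, n = 6) and 1.42 ± 1.11 (SD, n = 8), which are 1.95 apart, or 3.86-fold.
The 2 controls with miR-10a above miR-10b, replicates 3 and 13, had haemolysis markers of 7.03 and 7.21, and the other controls were at 6.88 or below. The mouse with OS at 3.26, replicate 10, had the lowest marker, 1.05. Without control replicates 3 and 13, the 2 mice whose marker was over 7, the groups were 2.50 apart. These are the 2 controls with the highest difference, so a wider gap had to follow and does not test the marker. With the marker as a covariate the log2 differences were 0.72 for miR-10a and -1.28 for miR-10b, and neither passed (limma adjusted p = 0.366 and 0.350).

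**Figure D2:**
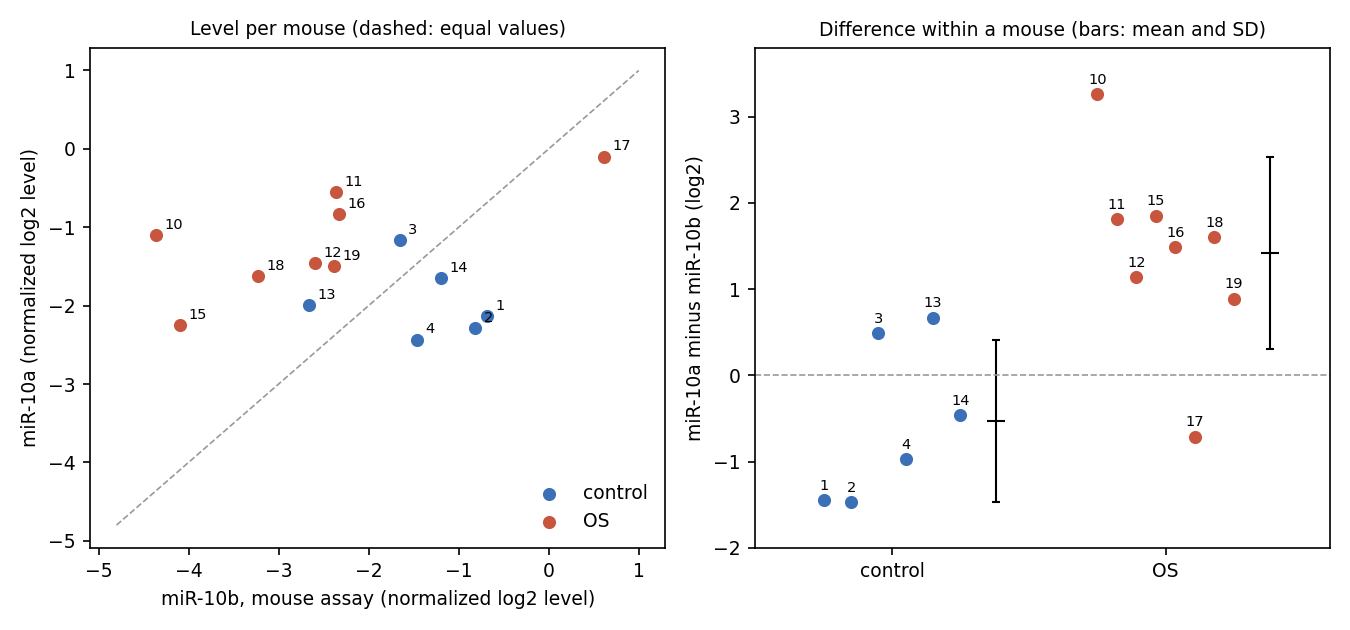
Left, normalized log2 level of miR-10a (vertical) against miR-10b, mouse assay (horizontal), 1 point per mouse with its replicate number and a dashed line of equal values. Right, the difference of both within each mouse by group, with mean and SD, where 7 of 8 mice with OS lie between 0.89 and 3.26 and controls between -1.47 and 0.67.

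miR-10b was measured a second time by the rat assay, which gave higher Cq values than the mouse assay in every mouse in which both were read. The difference was 1.86 ± 0.685 cycles (SD, n = 10 mice), from 0.70 to 2.95. Among 27 other miRNAs with a mouse and a rat assay the SD of this difference was 0.574 at the median, from 0.136 to 1.11, and 12 had a larger SD than miR-10b. Across the 10 mice the Cq values of the 2 assays ran together (r = 0.881, a description over mice of both groups).
The rat assay gave group means close to each other, with control mice at -3.43 ± 0.47 (SD, n = 6) and mice with OS at -3.45 ± 0.74 (SD, n = 4) on average (log2 difference -0.015, standard error 0.44, 95% confidence interval -0.96 to 0.93, limma adjusted p = 0.987). The 4 mice with OS in which it was read had normalized log2 levels of -3.70 (replicate 11), -3.82 (replicate 16), -2.34 (replicate 17) and -3.92 (replicate 18). The other 4, replicates 10, 12, 15 and 19, had Cq values of 35.04 to 36.27 in the mouse assay, at the dim end of that assay. Of the 4 wells 2 were blank, 1 was at Cq 38.0 and 1 at exactly 40, the highest value given. Replicate 18, at 35.7 in the mouse assay, was still read at 36.4 in the rat assay.
On the same 6 controls and 4 mice with OS the mouse assay also gave a smaller log2 difference, -0.41 (exact permutation p = 0.614). With missing values set to Cq 38 the rat assay gave -1.14 (limma adjusted p = 0.160). All missing values were in OS, so the fill lowers OS alone and the size of this difference follows the value chosen. With the imputation of the methods it was 0.17. Between the log2 differences of the 2 assays, over 8 mice with OS in the mouse assay and 4 in the rat assay, there was a gap of 1.17. None of the 27 other miRNAs had a larger one (median 0.25). On the same 6 controls and 4 mice with OS the values lay closer together, at -0.41 and -0.015. With the rat assay in place of the mouse assay, miR-10a minus miR-10b was 1.49 ± 0.56 (SD, n = 6) for control mice against 2.67 ± 0.46 (SD, n = 4) for mice with OS. This difference is between panel I and panel II, so it depends on how each panel is scaled. With each panel on its own mean the log2 differences, OS minus control, were 1.01 for miR-10a and -0.37 for the rat assay. By this assay miR-10a stood above miR-10b in 6 of 6 controls, from 0.95 to 2.31, and in 4 of 4 mice with OS, from 2.24 to 3.15, so which of the pair is higher depends on the assay.

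**Figure D3:**
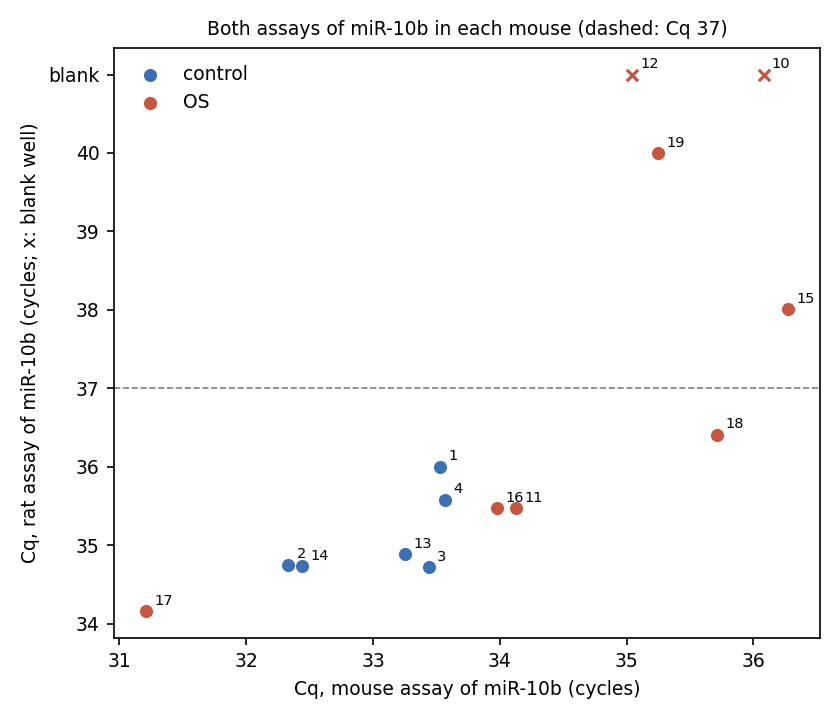
Deposited Cq of the rat assay of miR-10b (vertical, cycles) against that of the mouse assay (horizontal, cycles), 1 point per mouse, with the background limit of Cq 37 dashed and blank wells as crosses. The 4 mice without a value at or below 37 in the rat assay are all mice with OS at 35.04 or above in the mouse assay.

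miR-196b, from the Hoxa cluster, varied widely already among controls. Its normalized log2 level there was -4.11 at the lowest, -2.88 at the median and -1.16 at the highest. The 5 mice with OS in which it was detected were at -4.48 (replicate 11), -4.43 (replicate 15), -4.76 (replicate 16), -1.67 (replicate 17) and -3.85 (replicate 19). Of these 3 lay below every control and 1, replicate 19, lay above 2 controls, while replicate 17 lay above 5. The means were -2.81 ± 1.20 (SD, n = 6) and -3.84 ± 1.26 (SD, n = 5), a log2 difference of -1.03 (standard error 0.65, 95% confidence interval -2.41 to 0.35), which did not pass (limma adjusted p = 0.287; exact permutation p = 0.184). The 3 mice with OS that are missing here, replicates 10, 12 and 18, had wells at Cq 38.4, 39.1 and 40. With missing values at Cq 38 the difference was -1.76, and with every Cq below 40 kept -1.81, both short of the threshold (limma adjusted p = 0.0762 and 0.111).

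The passenger arm miR-196b* gave no difference past its spread. It was between -5.19 and -2.84 in the 5 controls that had it, with a median of -3.24, and between -4.78 and 0.01 in 7 mice with OS, with a median of -3.71, and was at Cq 40 in control replicate 14 and OS replicate 10. By medians OS was lower, and by means higher. The log2 difference was 0.48 (standard error 0.70, 95% confidence interval -0.99 to 1.96, limma adjusted p = 0.675; exact permutation p = 0.631). Control replicate 4, the highest of all mice for miR-196b at -1.16, was the second lowest of the controls for miR-196b* at -4.63. With group means removed, the 2 arms of this hairpin had r = 0.376 over 10 mice, and -0.388 without OS replicate 17. miR-196b* ran closer to miR-10b, with r = 0.840 over 12 mice for the mouse assay and 0.911 over 9 mice for the rat assay, or 0.527 and 0.754 without OS replicate 17. These are descriptions, in which the assays share a scaling.

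OS replicate 17 held the highest level of all mice with OS in each of the 5 wells, and also the lowest Cq before scaling in each. Over all 388 assays tested it was the highest in 15.5% and had the lowest Cq in 21.1%. Its levels were above every control for miR-10a, both assays of miR-10b and miR-196b*, and below 1 of 6 controls for miR-196b. Measured by the gap to the next mouse with OS as a share of the range, it stood apart upward in 6 of 388 assays, or 1.55%, of which 3 were members. These are both assays of miR-10b, which are 1 miRNA, and miR-196b*. The other 3 were miR-148a, miR-103-2* and miR-466d-3p, named after their values were seen.
The haemolysis marker of this mouse was 4.26 and its global mean Cq was 31.8, both inside the range of the other mice with OS. Markers of smooth muscle and connective tissue, 4 assays of miR-143, miR-145 and miR-199a-3p, had a summed log2 level of 7.81 in OS replicate 17, against 6.17 to 7.11 in the other mice with OS and 6.54 to 7.60 in controls. Of the 4 assays, 3 were higher in this mouse than in any other, among them both the mouse and the rat assay of miR-143. The assay of miR-145, at 4.21, was not, with other mice with OS up to 5.52 and controls up to 5.62. This mouse was also the lowest of all 14 for the platelet and myeloid markers, at 7.72. There every mouse with OS was low, at 8.18 or below, with controls at 8.29 or above. For the 3 assays of miR-99, summed without miR-100, which was not measured in every mouse, OS replicate 17 was the highest of all. It was at 5.14, with controls up to 5.01. For 3 assays of miR-125 it was at 6.08, within the control range of 5.61 to 6.45. The part of these in the levels of miR-10b and miR-196b* was not tested.

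The assays whose levels ran most like each member were taken from the 276 measured in every mouse, by Pearson's r across mice after group means were removed. For miR-10a over 14 mice they were miR-320 (r = 0.727), miR-486 (0.718), miR-140* (0.693), miR-210 (0.656) and miR-214* (0.653), which without OS replicate 17 were between 0.506 and 0.823. For miR-10b they were miR-152 (0.871), miR-199a-3p (0.822), miR-27a (0.805), miR-1949 (0.740) and miR-214* (0.671), which without OS replicate 17 were between 0.479 and 0.704. Only miR-214* is on both lists. miR-10a and miR-10b themselves had r = 0.557, and 0.230 without OS replicate 17.
The rat assay of miR-10b ran most like miR-218, miR-27a, miR-27b, miR-497 and miR-199a-3p (0.681 to 0.777, n = 10). Without OS replicate 17 miR-218 was at 0.608 and the other 4 between -0.031 and 0.366. miR-196b* ran most like miR-10b, followed by miR-27a, miR-497, miR-218 and miR-148a (0.660 to 0.718, n = 12). Without OS replicate 17 miR-10b was at 0.527 and the other 4 between 0.020 and 0.280, so that 1 mouse carries most of this likeness. miR-196b ran most like miR-15b, miR-20a, miR-25, miR-16 and the rat assay of miR-7a-1* (0.651 to 0.734, n = 11), which without OS replicate 17 were between 0.563 and 0.776. Of the red blood cell markers miR-451, miR-144, miR-486 and miR-16, only miR-16 is on this list, and miR-486 is on that of miR-10a. A link of miR-196b to red blood cells was not tested. The difference of miR-196b was -1.02 with the haemolysis marker as a covariate and -0.81 without the mice whose marker is over 7, and neither passed (limma adjusted p = 0.523 and 0.554).

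The nearest relatives of miR-10 by sequence outside the Hox clusters are miR-99, miR-100 and miR-125. Their seeds set them apart from miR-10.
mmu-miR-99a-5p: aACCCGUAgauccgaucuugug
mmu-miR-100-5p: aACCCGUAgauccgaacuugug
mmu-miR-125a-5p: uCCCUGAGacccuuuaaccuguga
Of 9 wells of these relatives none passed in either direction, against 12.6% of all assays. At an unadjusted p under 0.05 the count was 1 of 9, miR-125a-3p, against 30.7% of all assays. Their median log2 difference was 0.44, against -0.00 over all 388 assays. The log2 differences of miR-99a and miR-100 were -0.89 and -0.48, and those of miR-99b and miR-125a-3p were 0.71 and 1.31 (limma adjusted p from 0.0600 to 0.419). miR-125b-5p, the most abundant of them, differed by 0.19 (standard error 0.30). miR-615, which also lies in a Hox cluster, was not analysed here.

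**Figure D4:**
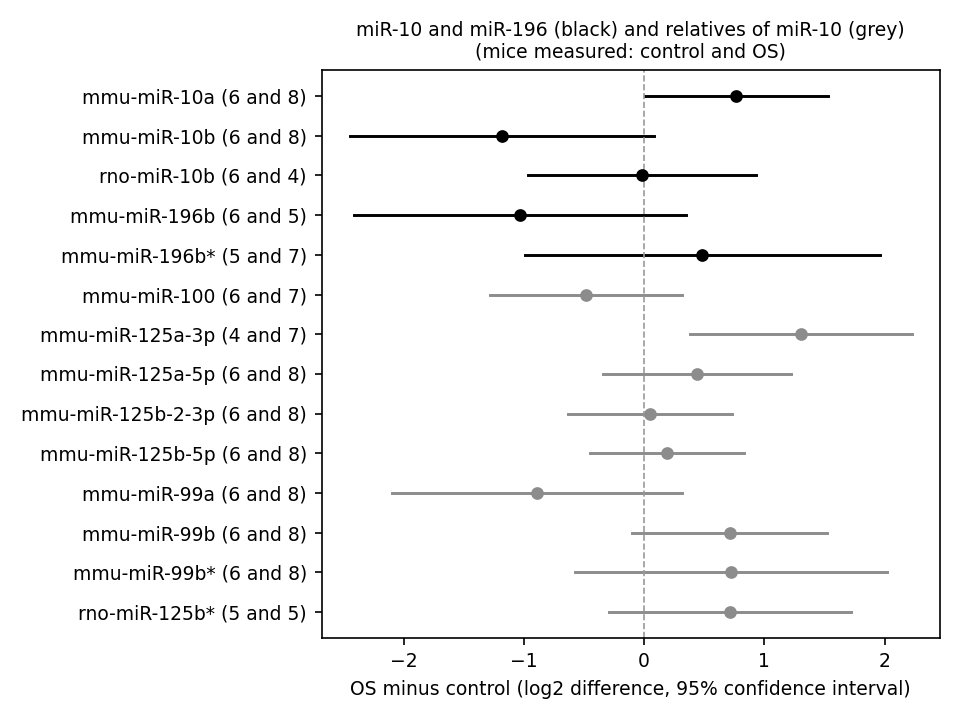
Log2 differences in normalized level, OS minus control (horizontal axis, points with 95% confidence intervals from limma), of the 5 miR-10 and miR-196 wells in black and the 9 wells of relatives in grey, with the number of control and OS mice measured. Estimates of the members run from -1.18 for mmu-miR-10b to 0.77 for mmu-miR-10a, and no well passed after adjustment.

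Of 25 markers of cell types 4 passed (16.0%), near the 12.6% of all assays. In red blood cells 1 of 4 markers passed, miR-144 at a log2 difference of -2.38, with a median of -1.10 over the list, and in epithelium 2 of 4, miR-205 and miR-141. Summed log2 levels of the red blood cell markers were between 12.0 and 14.0 in controls and between 9.64 and 13.0 in OS, and those of epithelium between 5.41 and 6.65 and between 2.15 and 4.91. In smooth muscle and connective tissue and in kidney, muscle, liver and lymphoid cells no marker passed, and in platelets and myeloid cells 1 of 4 passed, miR-142-3p. Whether these move the members was not tested. In plasma fewer cells of a type and less miRNA released per cell cannot be told apart.

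**Figure D5:**
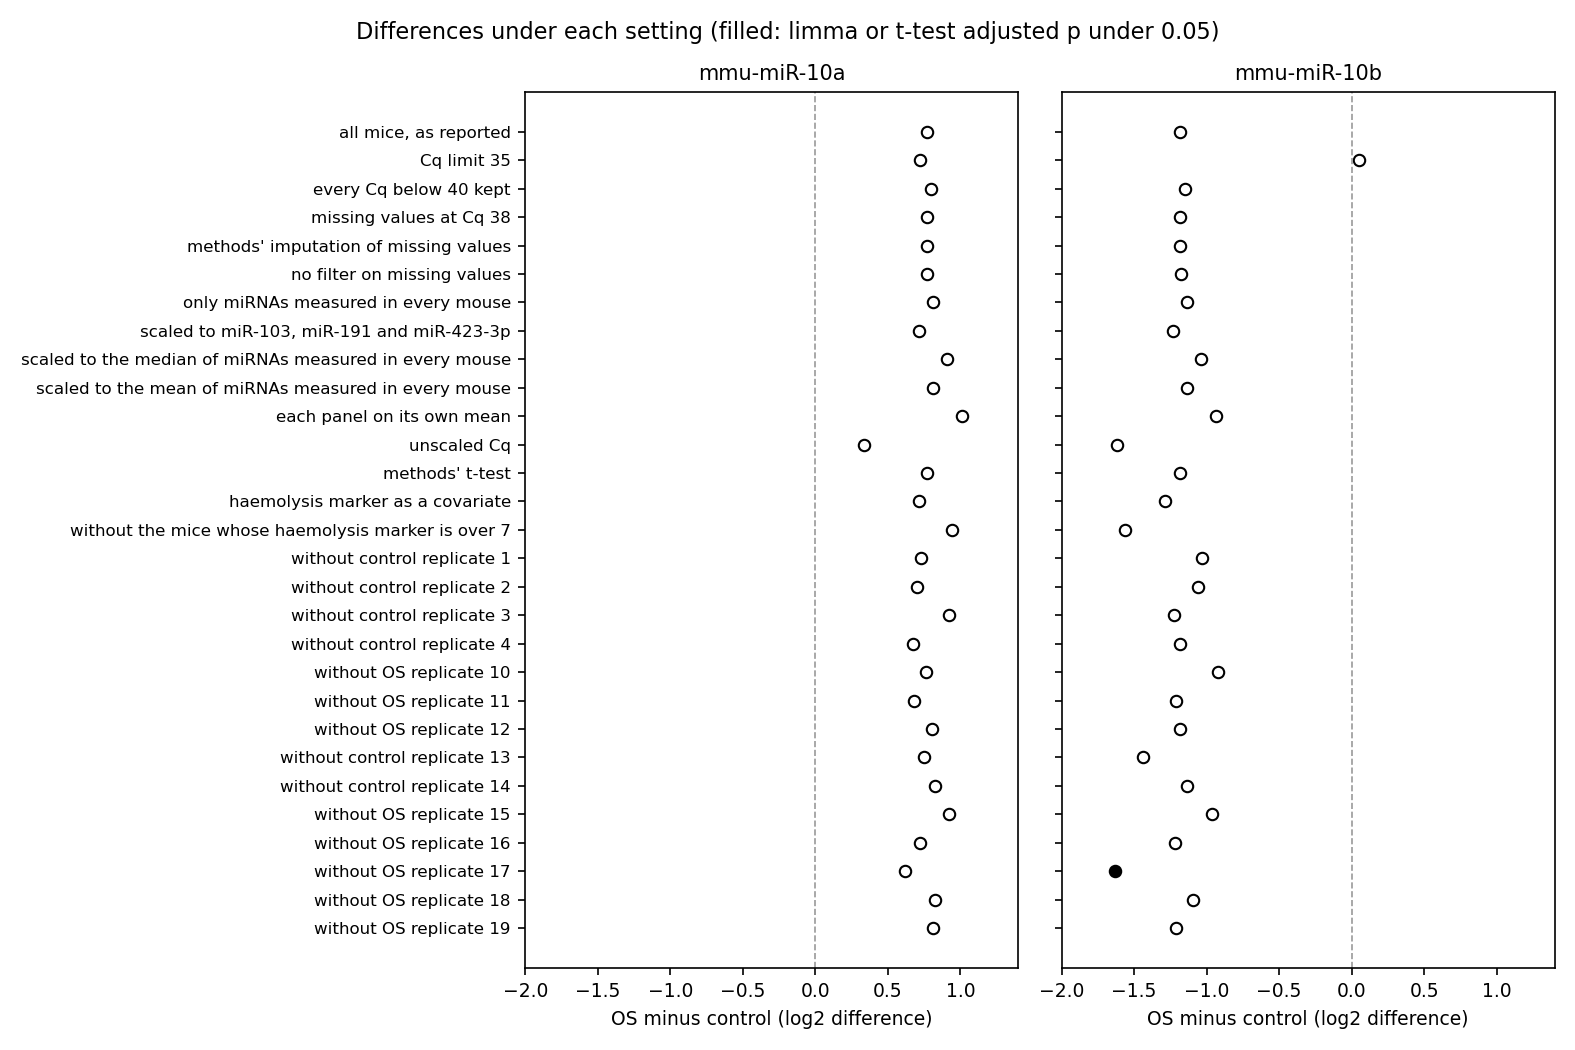
Log2 differences, OS minus control (horizontal axis), of mmu-miR-10a and mmu-miR-10b under each scaling, Cq limit, treatment of missing values, test and set of mice (vertical axis). Filled points passed an adjusted p of 0.05. miR-10a lies between 0.33 and 1.01 and never passed, and miR-10b lies below 0 except at 0.049 with a Cq limit of 35, and passed only without OS replicate 17.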

How the data were processed

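Plasma miRNAs, here of 6 controls and 8 mice with OS, were measured by the authors by quantitative PCR on Exiqon mouse panels I and II. The authors deposited Cq values, a log2 scale with no normalization between mice. Whether interplate calibration and removal of outlying wells came before this table, the sources used here do not say. Wells were named through the authors' deposited table of fold changes and p-values, of which only the names were used. The methods give 14 GEMM mice, of which 8 were analysed here.

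From the Cq values, those above 37 were set to missing, wells of the same assay were averaged, and 1 of 389 assays, missing in at least 75% of mice, was dropped. Levels were taken relative to the mouse's global mean Cq, for which missing values were replaced by the group mean or Cq 38. In the tests they stayed missing. Groups were compared with limma 3.58.1 in R 4.3.3 (lmFit and eBayes, no covariate), with Benjamini-Hochberg adjustment over the 388 assays, and single values by exact permutation of the mice. For detection Fisher's exact test was used. The t-test of the methods was run with equal variances on imputed values. After adjustment it called 0 of the 5 members and 0 of their 9 relatives, against 29 of all 388 assays. Before adjustment it called 1 member, miR-10a. The share over all assays is not given for this test and was 30.7% by limma, so the call is not read as particular to miR-10a. There are no counts behind a Cq, so precision rests on the spread between mice. No 2 mice shared more than 6 equal Cq values below 40. The code was tested on simulated data.

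Assays named are the members, miR-99, miR-100 and miR-125, the 5 most like each member measured in 10 or more mice, and the markers of cell types. The members and lists were chosen with earlier results of these data known. Alternatives for miR-196b*, which the rule also takes in, were added after the data were seen. All columns of Cq values were used.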

Additional observations from a re-analysis of the deposited data

Results flagged for a closer look

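The level of OS replicate 17 stood apart from the other mice with OS in 3 of the 5 wells, by the gap to the nearest mouse as a share of the group's range. For the mouse assay of miR-10b it was at 0.61 against -2.33 for the next of 8 mice. For the rat assay it was at -2.34 against -3.70 for the next of 4 mice. For miR-196b* it was at 0.011 against -3.23 for the next of 7 mice. In all 16 groups of values were checked, and chance alone flags about 5% of groups. Both assays of miR-10b were read on the same RNA and so are not separate evidence.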

How the results depend on the processing

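miR-10a kept its direction and did not pass in any of the 28 alternatives (0.62 to 0.92 with single mice left out, 0.33 to 1.01 otherwise). The mouse assay of miR-10b was at -1.63 to -0.92 with single mice left out and passed without OS replicate 17 only. It was at 0.049 with a Cq limit of 35, which leaves 3 mice with OS, and that limit also put its detection at -62.5 percentage points, OS minus control (Fisher's exact p = 0.0310). The rat assay changed sign, at 1.10 with a Cq limit of 35, which leaves 4 controls and, in OS, replicate 17 alone. It was at 0.17 with the methods' imputation and with the methods' t-test, and at 0.078 when scaled to the 3 references of the methods. When scaled to the median it was at 0.082, and with single mice left out at -0.38 to 0.14. miR-196b was at 0.47 with a Cq limit of 35, which leaves 1 mouse with OS, and at -1.57 to -0.70 with single mice left out. miR-196b* was at -0.059 (without OS replicate 17) to 0.74 with single mice left out, and its detection at -4.17 percentage points with a Cq limit of 35 and -12.5 (without control replicate 14) to 16.7 with single mice left out. The difference of miR-10a and miR-10b within a mouse was 1.68 to 2.25 with single mice left out and 1.18 to 2.50 otherwise. Assays called numbered 49, but 29 with a Cq limit of 35 and by the methods' t-test, 21 with unscaled Cq, 17 with a covariate for haemolysis, 20 when mice with a marker over 7 were dropped, and 20 to 73 with single mice left out, of which 20 without control replicate 3, 22 without control replicate 14, 28 without OS replicate 11, 29 without OS replicate 12 and 31 without control replicate 13. Of those called, 24 were higher and 25 lower, against 22 and 11 on the scale of the references and 28 and 14 on that of the median. The cause of these changes was not tested, except that the Cq limit of 35 removes mice. Unscaled Cq moved the median difference of all assays by -0.45, and the median scaling by 0.14. No paired analysis was possible because the labels do not give the litter of each mouse. In these dim wells a missing Cq above 37 does not show absence, and a blank well, as in 2 mice for the rat assay, gives no level.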
